A study of Mus musculus with 2 samples.

Results

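The 10 genes described here make and load the peptides that MHC class I molecules show at the cell surface: the immunoproteasome subunits *Psmb8*, *Psmb9* and *Psmb10*, the PA28 activator subunits *Psme1* and *Psme2*, and the transport, trimming and loading genes *Tap1*, *Tap2*, *Tapbp*, *Erap1* and *Pdia3*. They were taken by name, and all 10 were among the 27998 genes of the deposited count tables. UMIs, each of which stands for 1 captured transcript, were counted in CD45+ leukocytes sorted by flow cytometry from the brains of C57Bl/6 mice at p21. The twi mice were galc-/-, a model of globoid cell leukodystrophy that lacks the lysosomal enzyme galactosylceramidase in every tissue, and the WT mice were their galc+/+ littermates. No mouse had been treated. Each genotype gave a single 10x Genomics library (3′ v2 chemistry), made from cells pooled over 2 to 3 animals, so there was no replicate, no test was possible, and every interval below is a 95% interval for counting error alone.

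The proteasome is the protease that cuts unwanted cytosolic proteins into peptides. In its standard form the cutting is done by the β subunits encoded by *Psmb5*, *Psmb6* and *Psmb7*, and in lymphocytes and in cells exposed to interferon newly built particles take up *Psmb8*, *Psmb9* and *Psmb10* in their place, a form called the immunoproteasome. *Psme1* and *Psme2* encode the PA28 ring that caps the particle. The peptides are carried into the endoplasmic reticulum by the transporter made of *Tap1* and *Tap2*, trimmed there by the aminopeptidase *Erap1*, and fitted into class I molecules with the help of tapasin (*Tapbp*) and the disulfide isomerase ERp57 (*Pdia3*), which also folds many other glycoproteins.

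On mouse build GRCm38 (GENCODE M21), *Psmb9* (chr17:34181987-34187764, minus strand), *Tap1* (chr17:34187553-34197225, plus strand), *Psmb8* (chr17:34197721-34201454, plus strand) and *Tap2* (chr17:34203527-34216321, plus strand) lie side by side in the MHC region of chromosome 17, where *Tapbp* (chr17:33915899-33929292, plus strand) also lies. *Psme1* (chr14:55578123-55581529, plus strand) and *Psme2* (chr14:55587441-55591113, minus strand) are near neighbors on chromosome 14. *Psmb10* (chr8:105935735-105938444, minus strand), *Erap1* (chr13:74639568-74693201, plus strand) and *Pdia3* (chr2:121413775-121438687, plus strand) stand alone. The annotated spans of *Tap1* and *Psmb9* overlap head to head by 212 bases, at the end of each gene that a 3′ assay does not count. RefSeq promoter windows (250 bases before to 50 bases after the start, GRCm38.p6) were matched for 9 of the 10 genes, all but *Tap2*. A core of the interferon-stimulated response element, which is GAAA, any 2 bases and GAAA, was searched on both strands. It was in the windows of *Psme1* and *Erap1*, and in 3.44% of all 32851 windows. The windows below are shown because *Tap1* shares 275 bases of its window (chr17:34187306-34187580) with *Psmb9*, and because *Psme1* and *Erap1* hold a match, given in capitals. A second motif, TTC, any 3 bases and GAA, was in the window of *Psmb8* (not shown) and in 8.3% of all windows. A match describes the letters only, and a window without one says nothing about what binds there.

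Tap1 (chr17:34187306-34187605, plus strand): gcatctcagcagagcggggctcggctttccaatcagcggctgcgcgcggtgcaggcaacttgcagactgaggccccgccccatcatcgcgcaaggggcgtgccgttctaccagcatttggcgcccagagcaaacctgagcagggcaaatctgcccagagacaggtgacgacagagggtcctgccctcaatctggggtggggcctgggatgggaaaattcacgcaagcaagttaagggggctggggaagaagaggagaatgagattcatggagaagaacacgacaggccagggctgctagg
Psme1 (chr14:55578244-55578543, plus strand): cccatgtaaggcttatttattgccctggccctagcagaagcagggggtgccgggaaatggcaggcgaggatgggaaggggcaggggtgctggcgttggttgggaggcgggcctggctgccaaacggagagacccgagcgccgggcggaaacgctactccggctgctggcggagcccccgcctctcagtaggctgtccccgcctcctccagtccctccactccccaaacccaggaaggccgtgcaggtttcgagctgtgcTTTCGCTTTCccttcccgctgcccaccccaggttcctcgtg
Erap1 (chr13:74639603-74639902, plus strand): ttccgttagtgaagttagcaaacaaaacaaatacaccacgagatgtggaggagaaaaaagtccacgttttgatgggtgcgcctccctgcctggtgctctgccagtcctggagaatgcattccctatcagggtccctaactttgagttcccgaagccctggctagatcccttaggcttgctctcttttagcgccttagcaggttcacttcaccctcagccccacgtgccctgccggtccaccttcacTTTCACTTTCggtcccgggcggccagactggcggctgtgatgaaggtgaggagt

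The WT library held 3749714 UMIs in 1278 barcodes (median 2216 per barcode) and the twi library 4807539 UMIs in 1220 barcodes (median 3149.5). No barcode was shared between them. Removal of barcodes with more than 15% mitochondrial UMIs left 1271 WT and 1207 twi cells. The disrupted gene itself, *Galc*, was nearly unread, with 4 WT and 8 twi UMIs, and since transcripts are counted at their 3′ end this checks no label. Cells were put into 7 classes by the UMIs of marker genes that include none of the 10. Outside these classes were 108 WT and 249 twi T cells with UMIs of neither or both of *Cd4* and *Cd8*, and 71 WT and 80 twi cells that stayed unassigned. CD8 T cells made up 8.58% of WT cells (109) and 36.0% of twi cells (434), and B cells 44.5% (566) and 14.2% (171). The pools also differed in the sex of the animals: 45.4% of twi cells and 0% of WT cells had *Xist* UMIs without UMIs of Y-linked genes. Values in cells with Y-linked UMIs and no *Xist* UMIs are therefore given beside the summed ratio of each class.

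Over all cells, every one of the 10 genes was higher in twi, as were 5051 of the 10657 genes with at least 20 UMIs. The 10 together gave 7018 UMIs in WT (1876 CPM, UMIs scaled to a total of 1000000) and 13416 in twi (2800 CPM), a ratio of 1.49 (1.45 to 1.54). The highest ratios were those of *Tap1*, which went from 70.3 to 133.2 CPM (ratio 1.89, 1.64 to 2.20), *Erap1*, from 15.5 to 29.2 CPM (1.88, 1.38 to 2.61), and *Psmb8*, from 349.3 to 623.9 CPM (1.79, 1.67 to 1.91). The lowest was that of *Pdia3*, from 303.9 to 381.3 CPM (1.255, 1.16 to 1.35). With *Psme1* (1.53), 4 of the 10 were at least 1.5-fold higher, where 11.5% of the 10657 genes with at least 20 UMIs were. Cells with a *Psmb8* UMI made up 50.4% (47.6 to 53.2%) in WT and 77.5% (75.0 to 79.8%) in twi. Cells with a *Tap1* UMI made up 17.2% (15.2 to 19.4%) and 36.0% (33.3 to 38.8%). Such shares rise with depth, and the medians were 2222 UMIs per cell in WT and 3182 in twi.

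Part of this difference went with the mix of cells. CD8 T cells, in which the 10 genes together were highest, held 15.2% of their UMIs in WT and 47.0% in twi. With the classes set to the same shares in both libraries, the ratio of the sum was 1.22 in place of 1.49. On that footing *Tap1* kept a ratio of 1.64, *Psmb8* had 1.34 and *Psmb9* 1.27, while *Erap1* came to 1.20, *Psme1* to 1.18, *Pdia3* to 1.12 and *Psme2* to 1.04. In cells with Y-linked UMIs and no *Xist* UMIs, of mixed classes, the ratio of the sum was 1.30 (1.23 to 1.37).

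The order of the classes was much the same in both libraries. In WT, the sum of the 10 genes was highest in CD8 T cells (2463 CPM, 2317 to 2615) and CD4 T cells (2431 CPM), followed by NK cells (2340 CPM), microglia (2164 CPM), monocytes (1986 CPM) and B cells (1838 CPM), with overlapping intervals between all neighbors. Neutrophils stood apart at 935.2 CPM (869.4 to 1005). In twi, CD8 T cells (3098 CPM, 3022 to 3176), NK cells (3029 CPM), CD4 T cells (2923 CPM) and microglia (2789 CPM) overlapped, monocytes (2254 CPM) and B cells (2082 CPM) formed a lower pair, and neutrophils were again apart at 750.3 CPM (638.5 to 876.0). *Pdia3* followed another order than the rest: it was highest in microglia in both libraries (872.4 CPM in WT and 1152 CPM in twi), apart from every other class. *Psmb10* was lowest in neutrophils, with 46.2 CPM in WT and 23.4 CPM in twi, and *Erap1* was sparse everywhere, with 0 UMIs in twi neutrophils, which allows up to 14.1 CPM if 3 UMIs are taken as the limit.

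**Figure D1:**
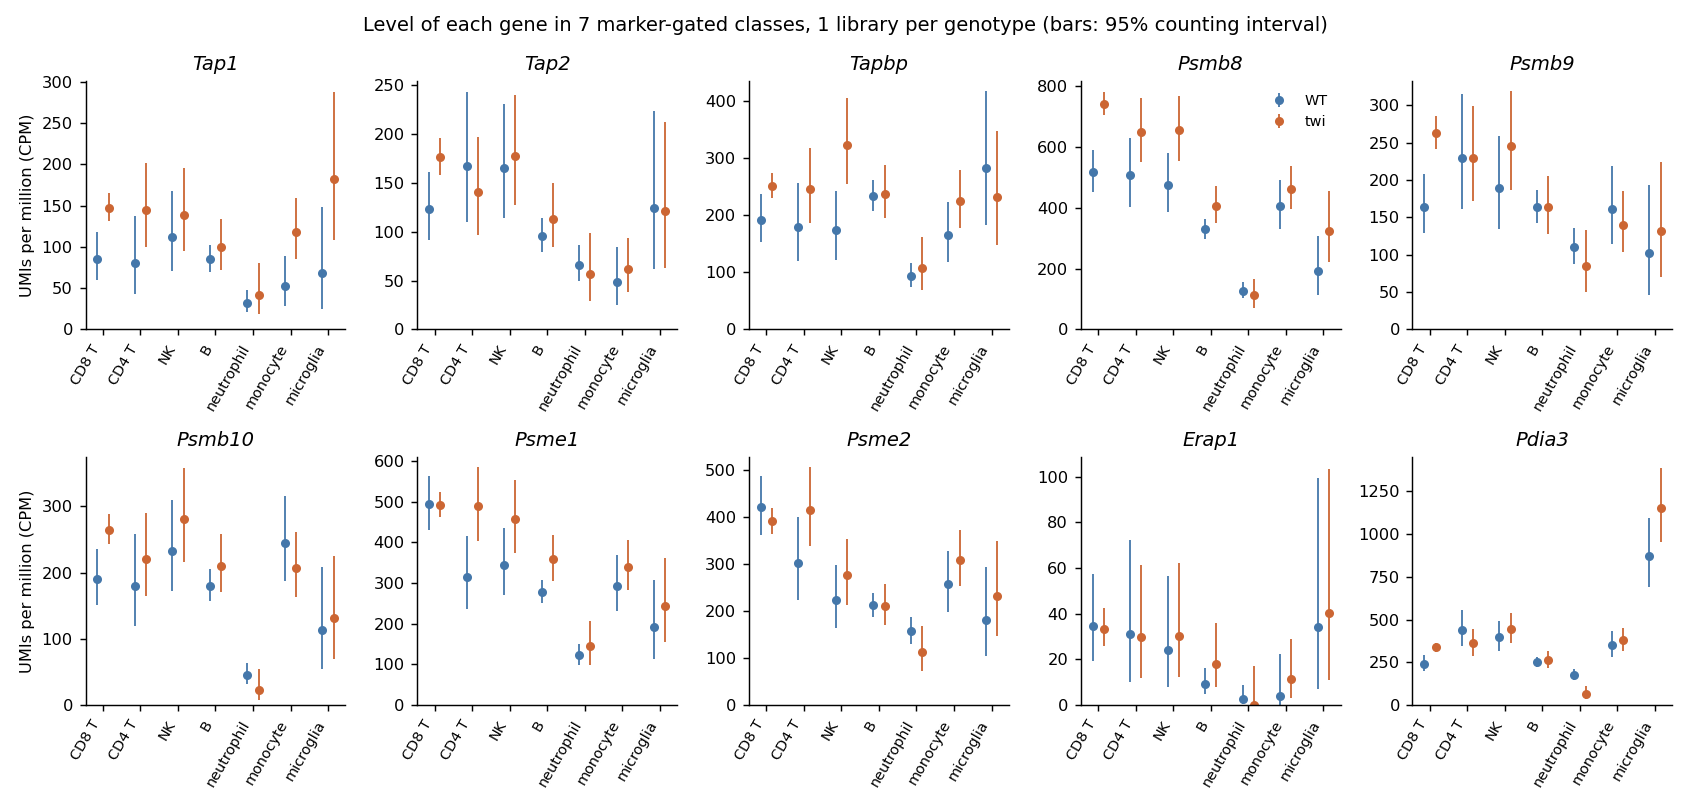
CPM of each of the 10 genes (y axes, linear and different for each gene) in 7 marker-gated classes of the WT (blue) and twi (orange) library; points are sums over the cells of a class and bars are 95% counting intervals. In CD8 T cells the twi points of *Tap1*, *Psmb8*, *Psmb9*, *Psmb10* and *Pdia3* lie above the WT points with separate intervals. Those of *Psme1* (493.0 and 491.2 CPM) lie side by side, and *Pdia3* is highest in microglia.

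Within CD8 T cells, the immunoproteasome subunits and the transport and loading genes were higher in twi and the PA28 subunits were not. The summed UMIs of *Psmb8*, *Psmb9* and *Psmb10* went from 872.7 CPM in WT to 1271 CPM in twi, a ratio of 1.46 (1.31 to 1.63). Those of *Tap1*, *Tap2*, *Tapbp*, *Erap1* and *Pdia3* went from 675.9 to 945.6 CPM, a ratio of 1.40 (1.24 to 1.59). Those of *Psme1* and *Psme2* were 914.3 and 882.2 CPM, a ratio of 0.965 (0.865 to 1.08), and this interval lies below the other 2 whatever the total used for scaling. All 10 together had a ratio of 1.26 (1.18 to 1.34). Neutrophil markers stood at 273.1 CPM in the WT class and 92.9 CPM in the twi class, and their part in these ratios was not tested. In CD8 T cells with at most 1 marker of any other class, the ratio of the sum was 1.33 (1.22 to 1.45), from 575 WT and 4973 twi UMIs.

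Among the catalytic subunits, *Psmb8*, which takes the place of *Psmb5*, had 224 UMIs in 109 WT cells and 1512 UMIs in 434 twi cells, or 518.5 and 743.5 CPM (ratio 1.43, 1.245 to 1.66). *Psmb9*, which takes the place of *Psmb6*, went from 164.3 to 262.6 CPM (1.60, 1.245 to 2.08). *Psmb10*, which takes the place of *Psmb7*, went from 189.8 to 264.6 CPM (1.39, 1.10 to 1.78). Over the whole class, the 3 intervals lie above 1 and overlap each other. Of the transporter, *Tap1* went from 85.6 CPM (37 UMIs) to 147.5 CPM (300 UMIs), a ratio of 1.72 (1.22 to 2.49), and *Tap2* from 122.7 to 176.0 CPM (1.43, 1.07 to 1.95). *Tapbp* went from 192.1 to 251.3 CPM (1.31, 1.04 to 1.67) and *Pdia3* from 240.7 to 337.3 CPM (1.40, 1.14 to 1.74). *Erap1* was level at 34.7 and 33.4 CPM (0.963, 0.545 to 1.81), from 15 WT UMIs. *Psme1* was at 493.0 and 491.2 CPM (0.996, 0.859 to 1.16) and *Psme2* at 421.3 and 390.9 CPM (0.928, 0.789 to 1.10). *Psme2* has a near copy in the gene table, *Psme2b*, with 37 and 155 UMIs in this class, so that reads may be divided between them; the copy's ratio was 0.890 (0.618 to 1.31).

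Of the 10 genes, 2 were at least 1.5-fold higher in twi CD8 T cells (*Tap1* and *Psmb9*), beside 22.8% of the 7541 genes with at least 20 UMIs in the class, so that share is near the background. The median log2 ratio of the 10 (with 0.5 UMIs added to each count) was 0.48, beside 0.10 for all genes, and the median gene without that addition lay 0.15 higher in twi on the log2 scale. Cells with a *Tap1* UMI made up 25.7% (17.8 to 34.9%) of WT and 44.5% (39.7 to 49.3%) of twi CD8 T cells, at medians of 3581 and 4016 UMIs per cell. After thinning to 1000 UMIs per cell they made up 7.41% (3.25 to 14.1%) and 14.3% (11.1 to 17.9%).

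In CD8 T cells with Y-linked UMIs and no *Xist* UMIs (50 WT and 61 twi cells), the ratio of the sum was 1.09 (0.970 to 1.22), with 1.20 (1.00 to 1.45) for the immunosubunits, 1.28 (1.04 to 1.58) for transport and loading and 0.815 (0.663 to 1.00) for PA28. Of single genes in these cells, *Tap1* had 1.74 (1.02 to 3.06), *Tap2* 1.58 (0.903 to 2.83), *Pdia3* 1.30 (0.919 to 1.85), *Psmb8* 1.27 (0.999 to 1.63) and *Psmb9* 1.26 (0.839 to 1.90). *Tapbp* (0.994, 0.646 to 1.53), *Psmb10* (0.984, 0.652 to 1.49) and *Psme1* (0.970, 0.741 to 1.27) lay near 1. *Psme2* had 0.630 (0.451 to 0.876) and *Erap1* 0.698 (0.239 to 1.96). Within the twi library, CD8 T cells with *Xist* and no Y-linked UMIs had 3186 CPM of the 10 genes and those with Y-linked UMIs and no *Xist* 2811 CPM, a ratio of 1.13 (1.05 to 1.23). These 2 groups come from different animals of the pool, so sex and animal cannot be told apart in this ratio. Outside the smaller groups sex and genotype cannot be told apart. Without cycling cells the ratio of the class was 1.30 (1.21 to 1.40).

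**Figure D2:**
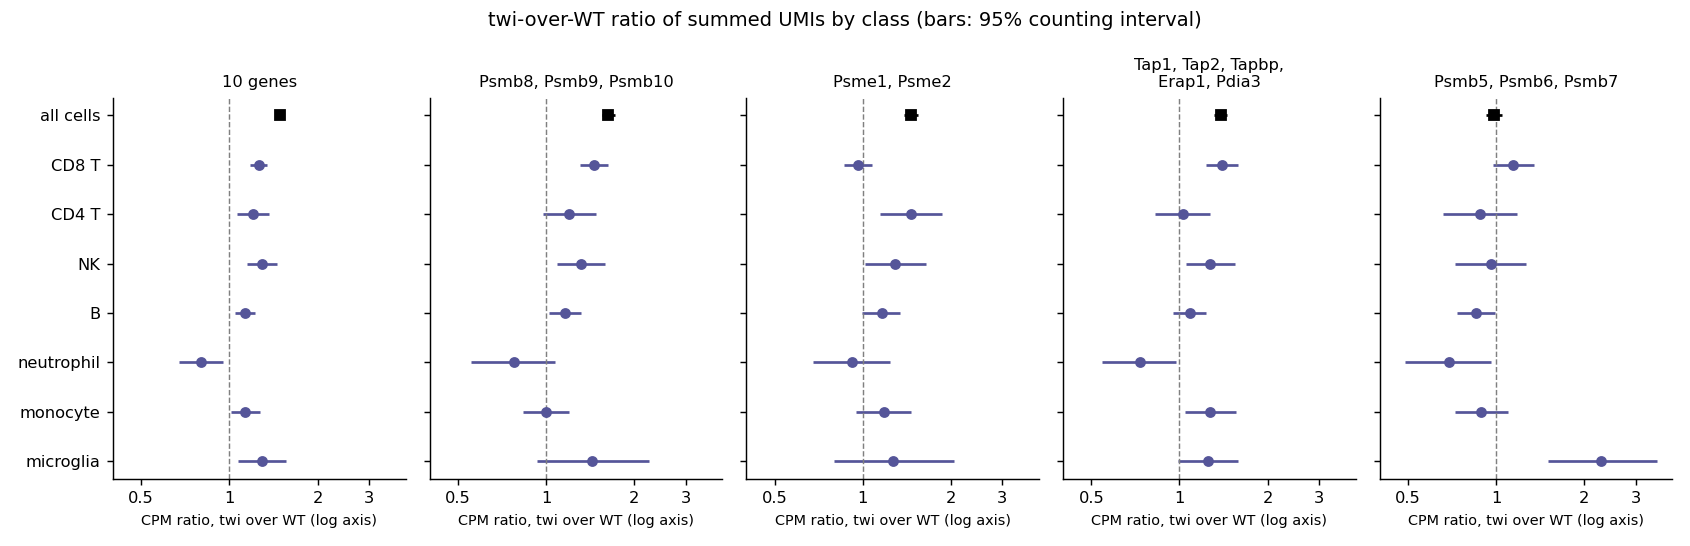
Ratio of CPM in twi to CPM in WT (x axes, log scale) for the summed UMIs of all 10 genes, of their 3 groups and of the constitutive catalytic subunits, over all cells (squares) and in each class (circles), with 95% counting intervals. In CD8 T cells the immunosubunits (1.46) and the transport and loading genes (1.40) lie right of 1 and PA28 (0.965) does not, and neutrophils lie left of 1 for the sum (0.802).

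Each immunosubunit can also be read against the constitutive subunit whose place it takes, a share that does not depend on the total UMIs of a library. Over all cells, the immunosubunits made up 57.7% (56.2 to 59.2%) of the UMIs of the 3 pairs in WT and 69.4% (68.3 to 70.4%) in twi. The constitutive subunits themselves were flat, at 483.8 and 476.1 CPM (ratio 0.984, 0.925 to 1.05). The share in CD8 T cells was 67.4% (63.4 to 71.3%) and 72.6% (71.1 to 74.0%), with overlapping intervals. The *Psmb8* share in this class was 78.0% (72.8 to 82.7%) and 81.2% (79.4 to 83.0%), the *Psmb9* share 51.1% (42.5 to 59.6%) and 57.7% (54.4 to 60.9%), and the *Psmb10* share 61.7% (52.8 to 69.9%) and 69.5% (66.1 to 72.7%). B cells had a lower share, 52.3% (49.9 to 54.7%) in WT and 59.9% (55.8 to 63.9%) in twi, with separate intervals. CD4 T cells had 63.5% (57.0 to 69.7%) and 70.4% (65.4 to 75.0%), NK cells 64.0% (58.2 to 69.6%) and 71.0% (66.2 to 75.5%), monocytes 55.2% (49.9 to 60.4%) and 58.0% (53.6 to 62.4%), and neutrophils 49.2% (44.6 to 53.9%) and 52.2% (41.4 to 62.9%). Microglia were the class in which the share was lower in twi, 41.4% (33.2 to 50.1%) after 52.9% (40.4 to 65.2%) in WT, with overlapping intervals.

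**Figure D3:**
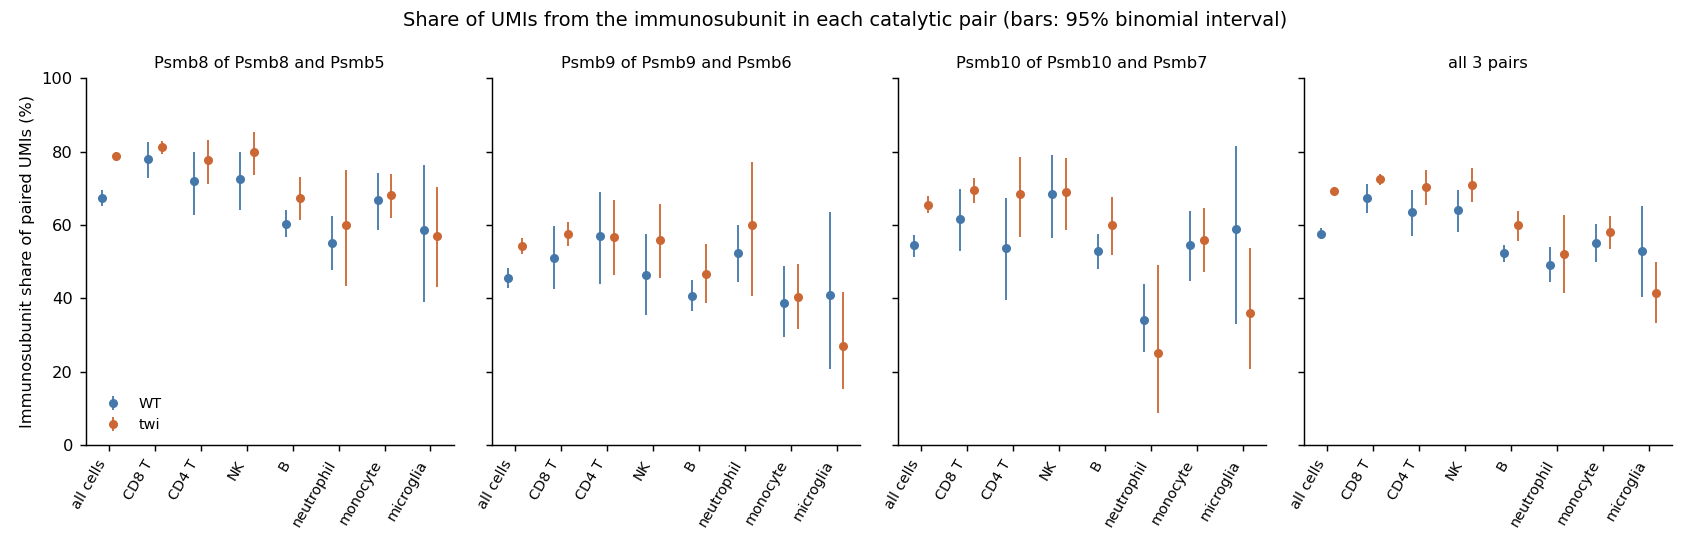
Immunosubunit UMIs as a percentage of the UMIs of the immunosubunit and its constitutive counterpart (y axis), for each of the 3 pairs and all pairs together, in WT (blue) and twi (orange), over all cells and by class, with 95% binomial intervals. The twi share over all 3 pairs is above the WT share in every class but microglia, and the intervals are separate over all cells (57.7% and 69.4%) and in B cells (52.3% and 59.9%).

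In CD4 T cells (48 WT and 68 twi cells), the PA28 subunits had the highest ratio of the 3 groups, at 618.7 CPM in WT and 903.6 CPM in twi (1.46, 1.15 to 1.87). *Psme1* went from 315.5 to 487.9 CPM (1.55, 1.10 to 2.19). The immunosubunits had a ratio of 1.20 (0.977 to 1.48) and the transport and loading genes 1.03 (0.828 to 1.28), and the intervals of the 3 groups overlapped. In this class 2 of the 9 genes with at least 20 UMIs, *Psme1* and *Tap1* (1.79, 0.923 to 3.70), were at least 1.5-fold higher, beside 14.6% of all genes. In CD4 T cells with Y-linked UMIs and no *Xist* UMIs, 32 in WT and 13 in twi, the ratio of the sum was 1.43 (1.19 to 1.71), against 1.20 (1.06 to 1.36) in the whole class.

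In NK cells (68 and 63 cells), the 3 groups had like ratios, 1.32 (1.09 to 1.59) for the immunosubunits, 1.29 (1.01 to 1.65) for PA28 and 1.27 (1.05 to 1.55) for transport and loading. *Tapbp* had the highest, from 174.8 to 323.6 CPM (1.85, 1.23 to 2.84), and it was the 1 gene of 9 past 1.5-fold, beside 11.4% of all genes. *Psmb8* went from 475.9 to 655.8 CPM (1.38, 1.06 to 1.80). The constitutive subunits had 505.0 and 483.2 CPM (0.957, 0.726 to 1.26). The summed ratio of the class was 1.29 (1.15 to 1.46), and 1.27 (1.04 to 1.55) in cells with Y-linked UMIs and no *Xist* UMIs.

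In B cells (566 and 171 cells), the ratio of the sum was 1.13 (1.05 to 1.22), and 1.17 (1.00 to 1.36) in cells with Y-linked UMIs and no *Xist* UMIs. *Psmb8* went from 329.7 to 407.8 CPM (1.24, 1.03 to 1.48) and *Psme1* from 277.8 to 358.0 CPM (1.29, 1.06 to 1.56). *Psmb9* (163.3 and 163.1 CPM), *Psme2* (212.8 and 210.7 CPM) and *Tapbp* (233.7 and 237.9 CPM) were level; *Psmb9* and *Psme2* change sides of 1 when the libraries are scaled by the median gene or without mitochondrial and ribosomal genes. *Erap1* was the 1 gene past 1.5-fold (1.95, 0.692 to 5.19, from 12 and 8 UMIs), beside 7.66% of all genes. The constitutive subunits were lower in twi B cells, 614.5 and 523.4 CPM (0.852, 0.732 to 0.987). Cells with UMIs of early B genes made up 89.4% of WT and 81.3% of twi B cells, and the ratio of the sum was 1.12 (1.03 to 1.22) among them and 1.247 (0.998 to 1.56) among the others. In the others, *Tap1* had 4 UMIs in WT and 12 in twi, or 37.4 and 176.0 CPM (4.70, 1.42 to 19.997).

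The myeloid classes were small or mixed. In monocytes (38 and 61 cells), *Tap1* went from 52.3 to 117.9 CPM (2.26, 1.19 to 4.58), the 1 gene of 9 past 1.5-fold, beside 11.8% of all genes. The summed ratio was 1.13 (1.01 to 1.27), and 1.01 (0.861 to 1.19) in cells with Y-linked UMIs and no *Xist* UMIs. The immunosubunits were level there, at 812.1 and 811.1 CPM (0.999, 0.832 to 1.20), and the transport and loading genes had a ratio of 1.27 (1.04 to 1.56). Neutrophil markers in this class stood at 3080 CPM in WT and 530.5 CPM in twi, and T cell markers at 24.1 and 300.3 CPM. Their part in these ratios was not tested. In monocytes with at most 1 marker of any other class, the ratio of the sum was 1.05 (0.868 to 1.27), from 170 WT and 323 twi UMIs. In microglia (28 and 16 cells), *Tap1* went from 68.0 CPM (6 UMIs) to 181.9 CPM (18 UMIs), a ratio of 2.68 (1.02 to 8.23), and *Psmb8* from 192.6 to 323.3 CPM (1.68, 0.905 to 3.22). They were the 2 genes past 1.5-fold there, beside 29.1% of all genes. All 3 constitutive subunits were also higher in twi microglia, from 362.6 to 828.5 CPM in sum (2.29, 1.502 to 3.55). Neutrophil markers stood at 5144 CPM in the WT microglia and 222.3 CPM in the twi microglia, and *S100a8* at 16678 and 232.4 CPM; their part in the result was not tested. In the cells of the class with at most 1 marker of any other class, which kept 35 WT and 58 twi UMIs, the ratio of the sum was 0.711 (0.460 to 1.12) in place of 1.29. It was 1.21 (0.963 to 1.53) without cycling cells, which left 127 of the 276 twi UMIs, and 1.22 (0.877 to 1.70) in cells with Y-linked UMIs and no *Xist* UMIs.

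Neutrophils were the class in which the sum was lower in twi, 935.2 and 750.3 CPM in 235 and 65 cells (0.802, 0.672 to 0.953). In cells with Y-linked UMIs and no *Xist* UMIs it was 0.301 (0.129 to 0.598), from 424 WT and 8 twi UMIs. None of the 9 genes with at least 20 UMIs was 1.5-fold higher, beside 10.4% of all genes, and 2 were 1.5-fold lower, beside 32.4% of all genes that were 1.5-fold lower. These were *Pdia3*, from 177.3 to 65.7 CPM (0.370, 0.197 to 0.642), and *Psmb10*, from 46.2 CPM (37 UMIs) to 23.4 CPM (5 UMIs; 0.508, 0.156 to 1.29). A group of 13 cycling WT cells held 313 of the 749 WT UMIs, at 1725 CPM, and 101 of the 142 WT UMIs of *Pdia3*. Without cycling cells the sum was 703.9 CPM in WT and 789.4 CPM in twi (1.12, 0.925 to 1.35) and *Pdia3* 66.2 and 68.4 CPM (1.03, 0.508 to 1.97). Cells with at least 2 of the secondary granule genes *Ngp*, *Camp*, *Ltf* and *Chil3* made up 73.6% of WT and 52.3% of twi neutrophils, and in the others the ratio was 1.20 (0.831 to 1.73).

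Counts of the 10 genes past other limits were read against all genes in the same way. Past a log2 ratio of 0.32, they numbered 10 over all cells (beside 21.9% of all genes), 7 in CD8 T cells (37.8%), 5 in CD4 T cells (26.4%), 4 in NK cells (23.0%), 2 in B cells (18.7%), 1 in neutrophils (22.1%), 3 in monocytes (23.3%) and 6 in microglia (40.5%). Past 2-fold, *Tap1* was the 1 gene in monocytes (4.86%) and in microglia (14.2%), and none was over all cells (533 of 10657 genes were), in CD8 T cells (11.6%), CD4 T cells (5.21%), NK cells (4.01%), B cells (2.03%) or neutrophils (3.10%).

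The cells of each class were next ordered by 10 interferon-stimulated genes outside the group (*Ifit1*, *Ifit3*, *Isg15*, *Isg20*, *Rsad2*, *Usp18*, *Rtp4*, *Irf7*, *Oasl2* and *Bst2*), after each cell had been thinned to 1000 UMIs. Among CD8 T cells, 73.1% of WT and 38.1% of twi cells had no UMI of these genes, and 3.70% (4 cells) and 23.1% (99 cells) had at least 3. Within twi, cells with at least 3 had 4.10 UMIs of the 10 genes per 1000 UMIs (3.71 to 4.52) and cells with none had 2.47 (2.23 to 2.72), a ratio of 1.66 (1.45 to 1.91). The ratio between these cells was 1.92 (1.53 to 2.42) for the immunosubunits, 1.83 (1.43 to 2.35) for transport and loading, 1.23 (0.939 to 1.60) for PA28 and 0.810 (0.505 to 1.27) for the constitutive subunits. *Tap1* had 0.253 UMIs per 1000 in cells with at least 3 and 0.117 in cells with none (2.17, 1.15 to 4.16), and *Psmb8* 0.828 and 0.521 (1.59, 1.16 to 2.18).

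Between genotypes, CD8 T cells with no interferon-stimulated UMI had 2.32 UMIs of the 10 genes per 1000 UMIs in WT and 2.47 in twi (ratio 1.06, 0.892 to 1.28), and cells with 1 to 2 had 2.52 and 2.82 (1.12, 0.859 to 1.48). The top group held 4 WT cells, with 17 UMIs in all, and its ratio was 0.965 (0.595 to 1.67). *Psmb8* had 0.494 and 0.521 UMIs per 1000 in WT and twi cells with none (1.06, 0.715 to 1.59). The transport and loading genes had within-group ratios of 1.11 (0.802 to 1.56) in cells with none and 1.92 (1.07 to 3.798) in cells with 1 to 2. The constitutive subunits had 0.657 (0.440 to 0.988) in cells with none and 2.45 (0.911 to 9.25) in cells with 1 to 2. In other classes, cells with no such UMI were compared between genotypes in the same way. The ratio of the 10 genes was 1.19 (1.04 to 1.37) in B cells, from 444 WT and 139 twi cells. It was 1.13 (0.837 to 1.52) in CD4 T cells, 1.06 (0.806 to 1.38) in NK cells, 0.914 (0.618 to 1.35) in monocytes and 0.800 (0.515 to 1.21) in neutrophils. For the immunosubunits of B cells it was 1.33 (1.07 to 1.66). Cells were placed in these groups by counts of the same libraries. Within twi, the ratio of cells with at least 3 to cells with none was 1.68 (1.08 to 2.54) in NK cells, from 7 and 36 cells, and 1.54 (0.959 to 2.43) in monocytes, from 11 and 28 cells. It was 1.12 (0.592 to 1.96) in CD4 T cells, from 5 and 42 cells, 2.36 (0.759 to 5.56) in B cells, from 1 and 139 cells, and 6.89 (3.55 to 12.96) in neutrophils, from 4 and 47 cells. For transport and loading in CD4 T cells it was 0.205 (0.00507 to 1.21). In WT neutrophils the ratio of cells with at least 3 to cells with none was 1.94 (1.16 to 3.10) for the 10 genes, from 14 and 162 cells. Between genotypes, neutrophils with 1 to 2 had a ratio of 0.991 (0.458 to 2.02). Those with at least 3 had 2.83 (1.40 to 5.64), from 14 WT and 4 twi cells.

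**Figure D4:**
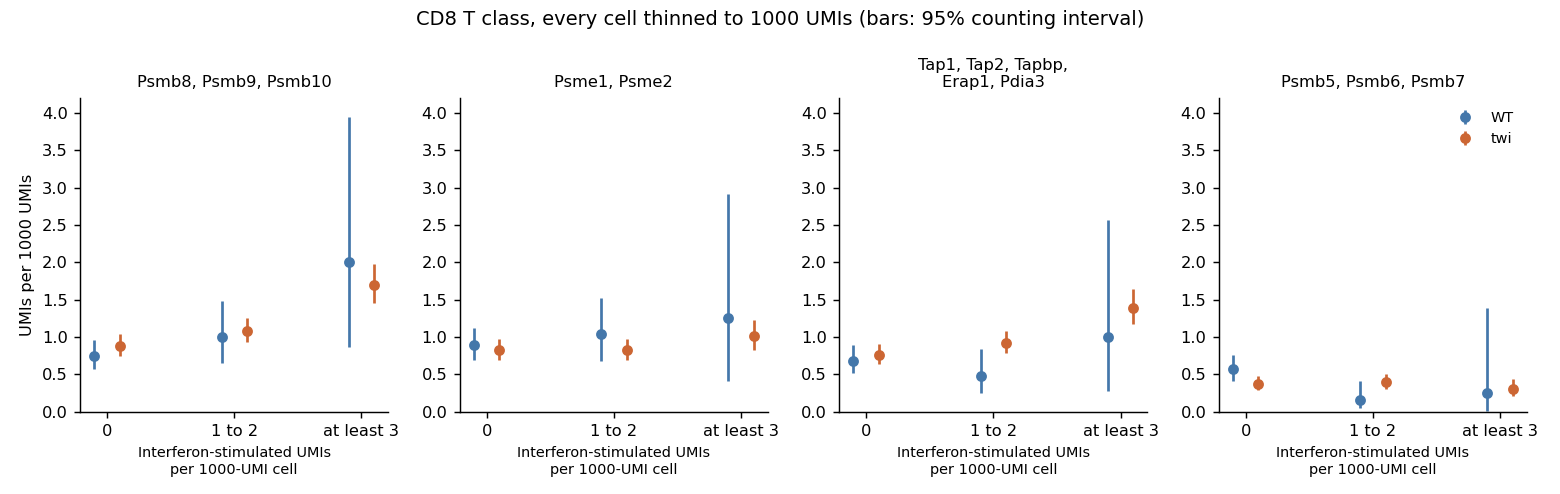
UMIs per 1000 UMIs (y axis) of the 3 groups and of the constitutive catalytic subunits in CD8 T cells thinned to 1000 UMIs, by the number of UMIs of 10 interferon-stimulated genes in the same cell (x axis), in WT (blue) and twi (orange), with 95% counting intervals. In twi the immunosubunits and the transport and loading genes are higher in cells with at least 3 such UMIs than in cells with none (ratios 1.92 and 1.83), PA28 less so (1.23), and the top WT group is 4 cells.

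Over all cells, no gene of the other proteasome lists was 1.5-fold higher or lower in twi. Of all 10657 genes with at least 20 UMIs, 5051 were higher and 5606 lower. Of the 11 other 20S core subunits, 6 were higher and 5 lower in twi, from *Psma1* (0.898) to *Psmb3* (1.15). The 17 subunits of the 19S cap were higher for 5 and lower for 12 (median ratio 0.975). They went from *Psmd6* (0.745, 0.624 to 0.889) to *Psmd4* (1.19, 1.06 to 1.33). The assembly and other activator genes were all 5 lower, with a summed ratio of 0.893 (0.832 to 0.957). Of the other loading and folding genes, the tapasin-related *Tapbpl* had 48.9 and 77.2 CPM (1.58, 1.32 to 1.90), and the chaperone *Canx* had a ratio of 0.844. Among CD8 T cells, 9 of the 11 core subunits were higher (median ratio 1.12) and 14 of the 17 cap subunits (median 1.20), where the median of all genes was 1.07. The extremes there were *Psma4* (1.37, 1.03 to 1.86) and *Psmb1* (0.903, 0.773 to 1.06) in the core, *Psmd3* (1.95, 1.16 to 3.50) and *Psmd11* (0.875, 0.622 to 1.26) in the cap, *Psme4* (2.97, 0.750 to 25.8, from 2 and 28 UMIs) and *Psmg1* (0.819, 0.449 to 1.60) among activators and assembly factors, and *Pdia6* (1.37, 0.968 to 1.996) and *Pdia4* (0.885, 0.612 to 1.31) among folding genes. The constitutive *Psmb5* had a ratio of 1.18 (0.898 to 1.56), *Psmb6* 1.22 (0.945 to 1.61) and *Psmb7* 0.983 (0.724 to 1.36).

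The class I genes that receive the peptides had a summed ratio of 1.47 over all cells and 1.20 at equal class shares. Their ratios in CD8 T cells were 1.33 (1.26 to 1.40) for *B2m*, 1.24 (1.15 to 1.33) for *H2-K1* and 1.17 (1.10 to 1.246) for *H2-D1*. In NK cells the 3 genes together had a ratio of 0.994 (0.944 to 1.05), with *H2-D1* at 0.875 (0.803 to 0.954), and in B cells 0.968 (0.929 to 1.01), with *H2-K1* at 0.891 (0.810 to 0.980). In microglia they went from 5291 to 14539 CPM (2.75, 2.47 to 3.06), where the 10 peptide genes had 1.29 (1.07 to 1.56). Of the 9 regulators, 7 were higher and 2 lower over all cells, where 5051 of all 10657 genes were higher. The lowest regulator was *Irf8*, at 281.2 and 121.3 CPM (0.431, 0.389 to 0.478), followed by the interferon gamma receptor chain *Ifngr2* (0.601, 0.472 to 0.765). In WT, *Irf8* stood at 772.0 CPM in NK cells, 498.5 in microglia, 449.6 in B cells and 365.9 in monocytes. Within classes, *Irf8* had ratios of 0.570 (0.440 to 0.736) in NK cells, 0.675 (0.498 to 0.915) in monocytes and 0.0616 in neutrophils (61 and 1 UMIs). The part of the cycling neutrophils (13 in WT and 2 in twi) was not tested. The *Irf8* ratio was 0.902 (0.759 to 1.07) in B cells, 1.16 (0.766 to 1.75) in microglia and 1.91 (0.876 to 4.95, from 7 and 63 UMIs) in CD8 T cells. *Ifngr2* had 1.56 (0.989 to 2.41) in B cells, 0.905 (0.532 to 1.55) in monocytes, 0.986 in microglia and 0.822 in neutrophils. B cells made up 44.5% of WT and 14.2% of twi cells, and the part of this mix was not tested. In microglia the summed regulators had 0.773 (0.631 to 0.947). The highest, *Nlrc5*, a transactivator of class I and its loading genes, had 24 UMIs (6.41 CPM) in WT and 124 UMIs (25.9 CPM) in twi over all cells (4.03, 2.59 to 6.53), and 16.2 and 36.4 CPM in CD8 T cells (2.25, 1.04 to 5.78). *Irf1*, an interferon-induced activator of *Tap1* and *Psmb9*, had 67.1 and 108.2 CPM in CD8 T cells (1.61, 1.09 to 2.46). The highest of the list there was *Stat2* (2.69, 0.854 to 13.6, from 3 and 38 UMIs), and all 8 regulators with at least 20 UMIs were higher in twi, as were 4613 of all 7541 genes, and 7 of them were past 1.5-fold, beside 22.8% of all genes.

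**Figure D5:**
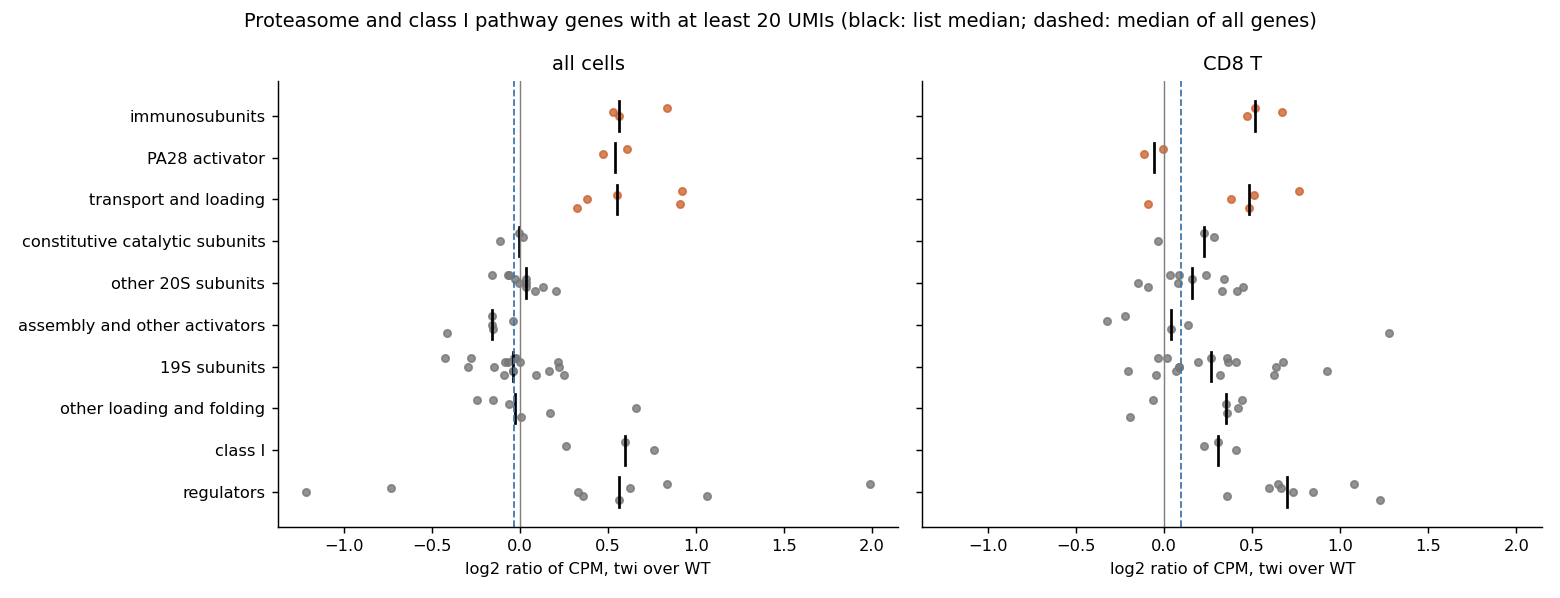
log2 ratio of CPM, twi over WT, with 0.5 UMIs added (x axes), of each gene with at least 20 UMIs, by list, over all cells and in CD8 T cells; orange points are the 10 genes, grey points the rest of the pathway, black bars list medians and the dashed line the median of all genes. Over all cells the 10 genes lie between 0.33 and 0.92 and the medians of the other proteasome lists between -0.16 and 0.03. In CD8 T cells the median of the 10 is 0.48 and that of all genes 0.10.

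Across the 14 sums of a class in a library, the gene whose log2(CPM + 1) was most like that of the 10 summed was *Tbca*, a tubulin folding cofactor (Pearson's r = 0.958), followed by *Mrpl52* (0.9505), *Evl* (0.944), *Rplp1* (0.940), *Wdr43* (0.938), *Eef1d* (0.931), *Gm4955*, *Edf1* (0.930), *2700060E02Rik* and *Mbnl1* (0.923), out of 2275 genes with at least 10 UMIs in at least 10 of the sums. Among the 10 genes, the likeness to the sum of the other 9 went from 0.496 for *Pdia3* to 0.913 for *Erap1*. The value of *Erap1* rests on sparse counts, from 0 UMIs in twi neutrophils to 68 UMIs in twi CD8 T cells. *Erap1* would not have met the limit of at least 10 UMIs in at least 10 of the sums. All these correlations describe 14 points that share 2 libraries and their depth.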

How the data were processed

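The samples were CD45+ brain leukocytes of WT and twi mice at p21, 1 pooled library each. The values are UMI counts per gene and barcode, not normalized, as the authors deposited them; the study aligned reads with STAR and called cells by a UMI threshold, and the submitters' processing notes name Cell Ranger 2.1.1 and mm10. Here, barcodes over 15% mitochondrial UMIs were dropped. A cell took the class with the most detected of 6 marker genes, if at least 2 and more than for any other class. For T cells, 4 of the 6 markers were rows of the table used here. T cells were divided by *Cd8a* or *Cd8b1* against *Cd4*, and NK cells had no *Cd3* UMI. Doublets were not called. Sums of UMIs per class became CPM with Poisson intervals, ratios had conditional binomial intervals and percentages Clopper-Pearson intervals, each exact and at 95% (scipy 1.17.1, numpy 2.4.6, Python 3.11.15); the ratio step was tested on simulated counts. No p-value was possible. Single genes were called past a fold from at least 20 UMIs, and list medians used 0.5 added UMIs. Thinning to 1000 UMIs left out 106 WT and 20 twi cells. The 10 genes and all lists were chosen with earlier results of these data known. All 10 genes are named, with the highest and lowest gene of each other list in CD8 T cells and every gene of lists of 3 or fewer; other genes were named after their values were seen. The lowest regulator in CD8 T cells is not reported here. The comparison by *Xist* within twi, and the ratios within and between groups of interferon-stimulated UMIs, were chosen after seeing the data.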

Additional observations from a re-analysis of the deposited data

Results flagged for a closer look

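Neutrophils were the class in which the summed UMIs of the 10 genes were lower in twi, with a ratio of CPM of 0.802, where CD8 T cells had 1.26. The difference between the classes was not tested, since there was 1 library per genotype, and the neutrophil value turns to 1.12 without cycling cells, of which WT held 13 and twi 2.

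Cells outside the 7 classes were looked at as well. T cells with UMIs of neither or both of *Cd4* and *Cd8* (108 in WT and 249 in twi) had 2400 and 3145 CPM of the 10 genes, a ratio of 1.31 (1.20 to 1.43), with *Psmb10* at 138.9 and 246.7 CPM (1.78, 1.26 to 2.57) and *Psmb9* at 128.2 and 210.0 CPM (1.64, 1.14 to 2.41). Unassigned cells (71 and 80) had 2580 and 2672 CPM, a ratio of 1.04 (0.931 to 1.15), with *Tap1* at 47.6 and 136.0 CPM (2.86, 1.45 to 6.15) and *Pdia3* at 519.4 and 330.4 CPM (0.636, 0.484 to 0.835). These differences were not tested either.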

How the results depend on the processing

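No paired analysis was possible because each genotype gave a single library. Of 114 alternative values, 75 stayed the same. Over all cells, the ratio of the sum (1.49) was 1.45 thinned to 1000 UMIs, 1.66 without mitochondrial and ribosomal genes, 1.30 in cells with Y-linked UMIs and no *Xist* UMIs and 1.22 at pooled class shares. In CD8 T cells (1.26), it was 1.16 without mitochondrial and ribosomal genes, 1.13 scaled by the median gene and 1.09 in cells with Y-linked UMIs only, the last with an interval that includes 1; no single one of the 10 genes changed sides of 1 by scaling in this class. In CD4 T cells (1.20), it was 1.43 in cells with Y-linked UMIs only, and in B cells (1.13), 1.23 thinned and 1.247 without early B cells. In neutrophils (0.802), it was 0.987 with at most 1 marker of another class, 0.301 in cells with Y-linked UMIs only, and turned to 1.07 thinned, 1.12 as a mean over cells, 1.12 without cycling cells and 1.20 without immature cells. In monocytes (1.13), it was 1.01 in cells with Y-linked UMIs only and turned to 0.984 thinned, and in microglia (1.29), it turned to 0.711 with at most 1 marker of another class; the cause was not tested. Genes past a lower limit, a log2 ratio of 0.32, numbered 10 over all cells, 7 in CD8 T, 5 in CD4 T, 4 in NK, 2 in B, 1 in neutrophils, 3 in monocytes and 6 in microglia, and past 2-fold 0 over all cells and in CD8 T, CD4 T, NK, B and neutrophils, and 1 in monocytes and in microglia. The immunosubunit share of twi, thinned, was 72.0% over all cells, 75.9% in CD8 T, 66.8% in B, 69.7% in neutrophils (54.7% in WT) and 64.9% in monocytes. Depth limits the sparse genes: *Erap1* had 58 WT UMIs in all.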
